A study of Mus musculus with 2 samples.

Results

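Accessible chromatin was described at 10 endothelial genes in newborn mouse kidney, out of 21938 protein-coding genes of GENCODE release M21. They were chosen by name and not by a rule on their values, but earlier results of these data were known. The genes fall into 5 transcription factors (Erg, Fli1, Sox7, Sox17 and Sox18) and 5 genes of the cell surface, junctions and secreted products (Pecam1, Cdh5, Emcn, Egfl7 and Plvap), called surface and junction genes here. The data are DNase-seq peak lists. DNase I cuts open chromatin, and a peak marks a stretch that was cut more often than its surroundings. The single group holds 2 biological replicates of whole kidney of B6NCrl mice, age 0 day, for which the labels name no genetic change and no treatment and give sex as not collected. The labels give the replicates separate tissue records and the same donor record, so the spread between them may be partly technical. With 1 group, the comparisons are between genes and carry no p-value.

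ERG and FLI1 are ETS-family factors, which bind DNA around a GGAA core and keep endothelial genes active. SOX7, SOX17 and SOX18 form the SOXF group of HMG-box factors, which act in arterial, venous and lymphatic specification. Cdh5 encodes VE-cadherin, the adhesion molecule of endothelial adherens junctions, and Pecam1 encodes CD31, an immunoglobulin-family adhesion molecule that platelets and leukocytes also carry. Emcn encodes endomucin, a sialoglycoprotein of capillary and venous endothelium, Egfl7 encodes a secreted protein of the vessel matrix, and Plvap encodes the protein of the diaphragms that span endothelial fenestrae and caveolae.

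The DNA of 8 regions is shown because it carries patterns described further on: ETS-type and SOX-type letters within the same site at Cdh5 and Egfl7, strong distal sites of Erg, Fli1, Sox18 and Pecam1, and an ETS-type match at the Emcn promoter. Sequences are from mm10 (GRCm38), read 5′ to 3′ on the strand of the gene, and the regions were chosen after their values were seen. A shared site is the union of overlapping peaks that holds a peak of both replicates. Its offset is counted from the most 5′ annotated transcription start site (TSS), negative upstream. Capitals mark exact matches, on either strand, of 8 short motifs: the ETS forms CCGGAAGT and CAGGAAG, the FOX:ETS form AACAGGAA, the SOX forms ACAATG and ACAAAG, the GATA form GATAAG, the AP-1 form TGANTCA and the KLF form CCACACCC. CAGGAAG and AACAGGAA overlap where AACAGGAA is followed by G. A match describes letters and is not a bound site. The Cdh5 sites are chr8:104096701-104096890 and chr8:104095741-104095890, on the plus strand and in introns of the overlapping gene Gm29682.
Cdh5 site at -4.83 kb: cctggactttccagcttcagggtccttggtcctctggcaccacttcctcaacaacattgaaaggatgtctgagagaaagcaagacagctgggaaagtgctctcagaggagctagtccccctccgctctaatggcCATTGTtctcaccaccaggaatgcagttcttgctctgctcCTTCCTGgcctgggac
Cdh5 site at -5.81 kb: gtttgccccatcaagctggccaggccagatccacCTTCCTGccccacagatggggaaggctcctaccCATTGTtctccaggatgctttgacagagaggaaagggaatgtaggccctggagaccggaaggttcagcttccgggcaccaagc
The Egfl7 site is chr2:26578541-26578710, on the plus strand and between genes.
Egfl7 site at -1.39 kb: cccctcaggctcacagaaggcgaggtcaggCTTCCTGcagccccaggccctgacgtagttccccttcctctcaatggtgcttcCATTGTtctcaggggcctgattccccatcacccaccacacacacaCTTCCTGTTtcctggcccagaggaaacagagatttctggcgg
The next 4 sites are read on the minus strand. They are chr9:32545261-32545430 between genes near Fli1, chr2:181675601-181675750 between genes near Sox18, chr11:106742601-106742750 in an intron of Pecam1, and chr16:95597821-95597990 between genes near Erg.
Fli1 site at -2.48 kb: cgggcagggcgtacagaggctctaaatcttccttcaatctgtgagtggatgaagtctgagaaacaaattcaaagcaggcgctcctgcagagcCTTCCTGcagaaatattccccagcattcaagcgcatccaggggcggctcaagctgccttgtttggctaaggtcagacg
Sox18 site at -4.04 kb: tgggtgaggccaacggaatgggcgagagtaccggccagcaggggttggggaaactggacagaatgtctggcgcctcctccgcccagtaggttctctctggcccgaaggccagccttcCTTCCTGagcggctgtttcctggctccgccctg
Pecam1 site at 7.95 kb: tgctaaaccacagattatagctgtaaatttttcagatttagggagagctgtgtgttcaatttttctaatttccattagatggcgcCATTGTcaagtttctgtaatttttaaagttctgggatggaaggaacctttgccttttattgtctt
Erg site at -11.31 kb: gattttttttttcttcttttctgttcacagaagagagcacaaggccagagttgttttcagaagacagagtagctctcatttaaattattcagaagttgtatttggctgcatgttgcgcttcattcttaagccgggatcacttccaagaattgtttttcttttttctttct
The Emcn promoter is the 250 bases before the RefSeq start, chr3:137340828-137341077 on the plus strand, credited to RefSeq on GRCm38.p6. The RefSeq promoter table matched 3 of the 10 genes, Erg, Emcn and Egfl7.
Emcn promoter: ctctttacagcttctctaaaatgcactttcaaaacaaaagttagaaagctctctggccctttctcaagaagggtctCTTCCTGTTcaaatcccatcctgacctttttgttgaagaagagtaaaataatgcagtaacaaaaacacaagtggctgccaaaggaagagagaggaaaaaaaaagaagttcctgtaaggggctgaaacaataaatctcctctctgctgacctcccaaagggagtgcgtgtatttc

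At all 10 genes a peak lay within 1 kb of a TSS, called a promoter peak here, in both replicates, against 71.8% of protein-coding genes (15743 of 21938). The signal of these peaks was low. Over the 10 genes, the strongest promoter peak had a signal whose median was 31.3 (replicate 1) and 28.1 (replicate 2), against 95.4 and 105 over all genes with a promoter peak. Signal is the authors' own value for each peak, and the sources used here do not give its scaling. In whole tissue, fewer endothelial cells and less accessibility per cell cannot be told apart.

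Among the ETS factors, Fli1 (chr9:32422204-32542861, minus strand) had the strongest promoter peak of the 5 factors, with 51.1 in replicate 1 and 48.4 in replicate 2 (49.7 ± 1.91, mean ± SD, n = 2). That peak belonged to its second TSS, 1.3 kb downstream of the first, where the signal was 36.5 and 23.5. Erg (chr16:95359169-95586593, minus strand) had a strongest signal of 32.0 and 25.5, from different starts. Erg has 4 groups of TSSs, and peaks stood at the most 5′ one, with 26.7 and 25.5, and at one 127.2 kb into the gene, with 32.0 and 20.2. The stronger start was therefore the inner one in replicate 1 and the most 5′ one in replicate 2. No peak of either replicate lay within 1 kb of the Erg TSSs at 56.2 and 62.0 kb.

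The SOXF genes had promoter peaks of low signal, in differing numbers. Sox17 (chr1:4490931-4497354, minus strand) had a strongest signal of 30.6 and 31.1 (30.9 ± 0.331) and 10 promoter peaks in replicate 1 and 12 in replicate 2, the most of any of the 10 genes. The window of its first TSSs is shared with Gm37587. Sox7 (chr14:63943673-63950732, plus strand) had a strongest signal of 23.6 and 24.9, from different peaks at its single TSS, with 4 peaks in each replicate. Sox18 (chr2:181669836-181671640, minus strand) had 24.7 and 18.0 (21.3 ± 4.72), the lowest mean of the 10 genes. Sox17 was the highest of the 3 in both replicates, and Sox7 and Sox18 overlapped, since 24.7 for Sox18 in replicate 1 lay above 23.6 for Sox7.

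Among the surface and junction genes, Egfl7 (chr2:26580014-26593120, plus strand) had the strongest promoter peak of all 10, with 60.3 and 68.3 (64.3 ± 5.68). Its promoter peaks were spread over internal starts. None lay at the first starts (0.0 and 1.0 kb), 26.9 and 27.9 stood at 3.9 kb, the strongest peak at 6.6 kb in a window shared with Gm20532, and 39.1 and 35.6 at 8.5 kb. Emcn (chr3:137341067-137432185, plus strand) followed with 49.7 and 50 (49.8 ± 0.199). Cdh5 (chr8:104101625-104144511, plus strand) had 35.6 and 30.0 (32.8 ± 3.97) at its main start, and 12.2 and 10.7 at a start 9.7 kb inside the gene. Plvap (chr8:71497765-71511752, minus strand) had its only promoter peak at 27.6 and 25.5 (26.6 ± 1.49).

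Pecam1 (chr11:106654217-106750628, minus strand) had a strongest promoter signal of 21.2 and 26.2, and these came from different starts. The peak at the most 5′ TSS, whose window is shared with Milr1, had 21.2 in replicate 1 and 13.4 in replicate 2. The peak at a start 35.2 kb inside the gene had 16.2 and 26.2. As at Erg, the order of these starts turned round between the replicates. For Erg, Sox7 and Pecam1, a mean over replicates, in the plots or elsewhere, therefore joins different peaks. A further start at 87.3 kb had 13.5 and 9.64, and none was called at 59.3 kb.

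Set against all genes with a promoter peak, the factors' promoters ranked between the 11.2th and 27.1th percentile of signal in replicate 1 and between the 6.75th and 24.8th in replicate 2. The surface and junction genes ranked between the 9.34th and 31.7th in replicate 1 and between the 12.0th and 34th in replicate 2. No gene of either class reached the median of all genes in either replicate. The factors' median signal was 30.6 and 25.5, against 35.6 and 30.0 for the surface and junction genes. The ranges overlapped, from 23.6 to 51.1 and from 18.0 to 48.4 for the factors, and from 21.2 to 60.3 and from 25.5 to 68.3 for the surface and junction genes. The factors had more promoter peaks by the median, with 7 and 6 against 3 and 2. The ranges overlapped, from 2 to 10 and from 3 to 12 for the factors, and from 1 to 7 and from 1 to 5 for the others. Per kb of promoter window the medians were 1.94 and 2.00 for the factors, against 0.556 and 0.50 for the surface and junction genes. The order of the class medians was thus the same once window length was taken into account. Single genes overlapped here too, with Emcn at 1.42 and 0.949 above Erg at 0.863 and 0.740.

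**Figure D1:**
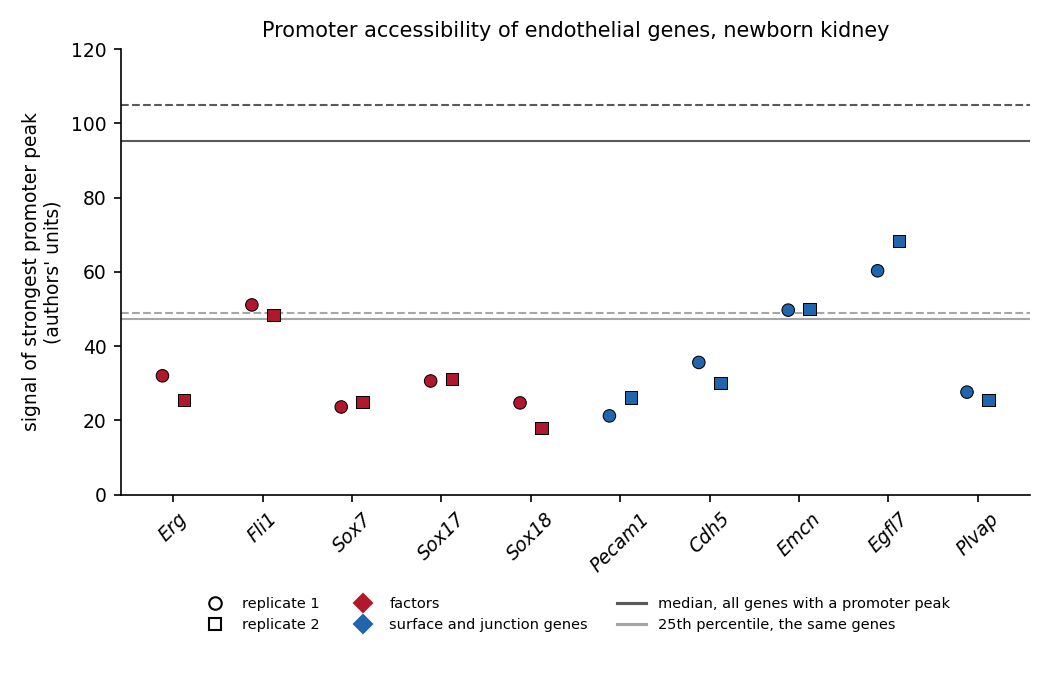
Signal of the strongest promoter peak (authors' units) of each gene in replicate 1 (circles) and replicate 2 (squares), factors in red on the left and surface and junction genes in blue on the right, with lines for all genes with a promoter peak (dark grey median, light grey 25th percentile; solid for replicate 1, dashed for replicate 2). All 10 genes lie under both medians, 95.4 and 105, and only Emcn and Egfl7 lie above the 25th percentile in both replicates, with Fli1 above it in replicate 1 alone.

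Promoters rich in CpG tend to be open in many cell types, and the classes differed in this respect. CpG observed over expected, read 500 bp to each side of the most 5′ TSS, was 0.448 at Erg, 0.576 at Fli1, 0.769 at Sox7, 0.677 at Sox17 and 0.770 at Sox18. It was 0.294 at Pecam1, 0.244 at Cdh5, 0.292 at Emcn, 0.170 at Egfl7 and 0.491 at Plvap. The factors' median was 0.677, against 0.292 for the surface and junction genes and 0.552 for all genes, and the ranges of the classes overlapped only through Plvap and Erg. By quintile of this ratio, 19.2% of all genes in the lowest had a promoter peak in both replicates, and 99.0% in the highest.

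Within their own CpG quintile, the SOXF promoters stood near the bottom. Sox7 lay at the 4.38th and 4.61th percentile of promoter signal in replicates 1 and 2, Sox17 at the 7.33th and 7.03th, and Sox18 at the 4.89th and 2.33th. Genes of that quintile, the fourth of 5, had a median promoter signal of 118 and 130, and 97.9% of them had such a peak in each replicate. The ETS factors stood higher in theirs, Erg at the 19.3th and 13.2th percentile and Fli1 at the 33.0th and 30.4th. Of the surface and junction genes, 4 were in the lower 2 quintiles. Of these, Egfl7, Emcn and Cdh5 ranked higher within their quintile than any factor did within its own. Egfl7 lay at the 65.2th and 68.3th percentile, but its CpG content was read at the most 5′ TSS, where it had no peak, and its ranked signal came from the start at 6.6 kb. Emcn lay at the 55.2th and 54.3th and Cdh5 at the 43.4th and 35.9th. Pecam1 was at the 24.4th and 31.8th, under the rank of Fli1 in replicate 1 and just above it in replicate 2. Plvap shares the third quintile with Erg and Fli1, and there, at the 15.8th and 13.2th percentile, it did not rank above either factor, so the order of the classes did not hold within that quintile. The strongest peaks of Fli1 in both replicates, of Erg in replicate 1 and of Pecam1 in replicate 2 were also at starts other than the one whose CpG content was read. The class medians were 7.33 and 7.03 for the factors, against 43.4 and 35.9 for the surface and junction genes.

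**Figure D2:**
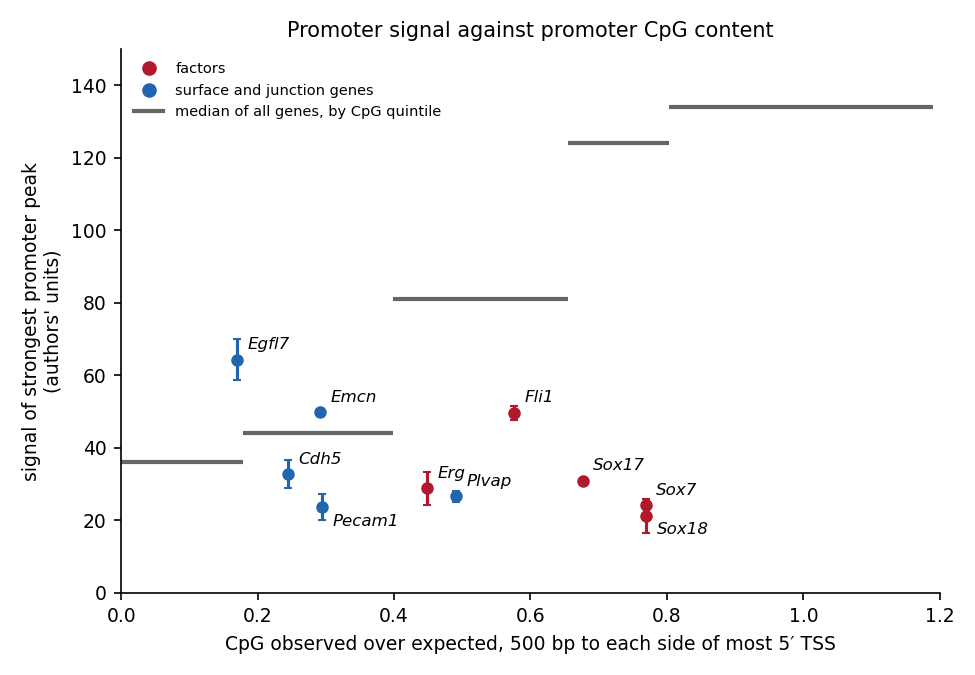
Signal of the strongest promoter peak (mean of 2 replicates, bars are SD, authors' units) against CpG observed over expected at the most 5′ TSS, factors in red and surface and junction genes in blue, with grey lines at the median of all genes with a promoter peak in each CpG quintile. Sox7, Sox17 and Sox18 sit far under the line of their quintile, and Emcn and Egfl7 sit above theirs, Egfl7 with its CpG content read at a start that had no peak.

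Around the 10 genes, 222 shared sites lay within 50 kb of the most 5′ TSS, 96 around factors and 126 around surface and junction genes. Of these, 35 were at the gene's own promoter, 39 at promoters of other genes and 148 were distal, meaning that the centre of the site lay over 1 kb from any TSS. A promoter peak needed only to overlap the 1 kb window, so a distal site could hold one, as did the Fli1 site at 2.33 kb. Of the distal sites 75 were intergenic, 57 intronic and 16 exonic, and the intronic share of 38.5% stood beside 52.8% over all 151068 shared distal sites. The median signal of the distal sites was 22.0 and 21.1, against 19.8 and 18.6 over all distal sites.

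Fli1 had the most distal sites of the 10 genes with 27, a number at the 99.1th percentile of all protein-coding genes, and no other protein-coding TSS within 50 kb. Sox18 had 13, Erg 10, Sox7 9 and Sox17 7. Plvap had 23, Egfl7 19, Cdh5 18, Pecam1 13 and Emcn 9. The median was 10 for the factors, against 18 for the surface and junction genes, with 13 over all 10 and 6 over all genes. The ranges overlapped, from 7 to 27 for the factors and from 9 to 23 for the surface and junction genes. Some of these neighbourhoods hold other genes. Plvap had 9 other protein-coding TSSs within 50 kb, Sox18 5, Pecam1 4, Egfl7 3 and Sox7 2, while Erg, Fli1, Sox17, Cdh5 and Emcn had 0. Many distal sites were nearer to such a TSS. Those nearest to the gene's own TSS numbered 25 at Fli1, 10 at Erg, 7 at Sox17, 3 at Sox7 and 3 at Sox18. They numbered 16 at Cdh5, 13 at Egfl7, 9 at Emcn, 8 at Pecam1 and 3 at Plvap. Counted this way, the classes lay closer together and still overlapped.

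The sites lay unevenly about the starts. Egfl7 had 17 distal sites upstream and 2 downstream, and Emcn 8 upstream and 1 downstream. Within the gene bodies, Erg held 23 shared sites in 227 kb, promoter sites included, and Emcn held 4 in 91.1 kb. The distal sites of Sox17 included 4 exonic ones between 4.81 and 6 kb, all under a signal of 20 in both replicates. At Cdh5 a row of 8 distal sites ran from -9.91 to -1.73 kb, and all of it lay in introns of Gm29682, whose annotation overlaps the Cdh5 upstream region.

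**Figure D3:**
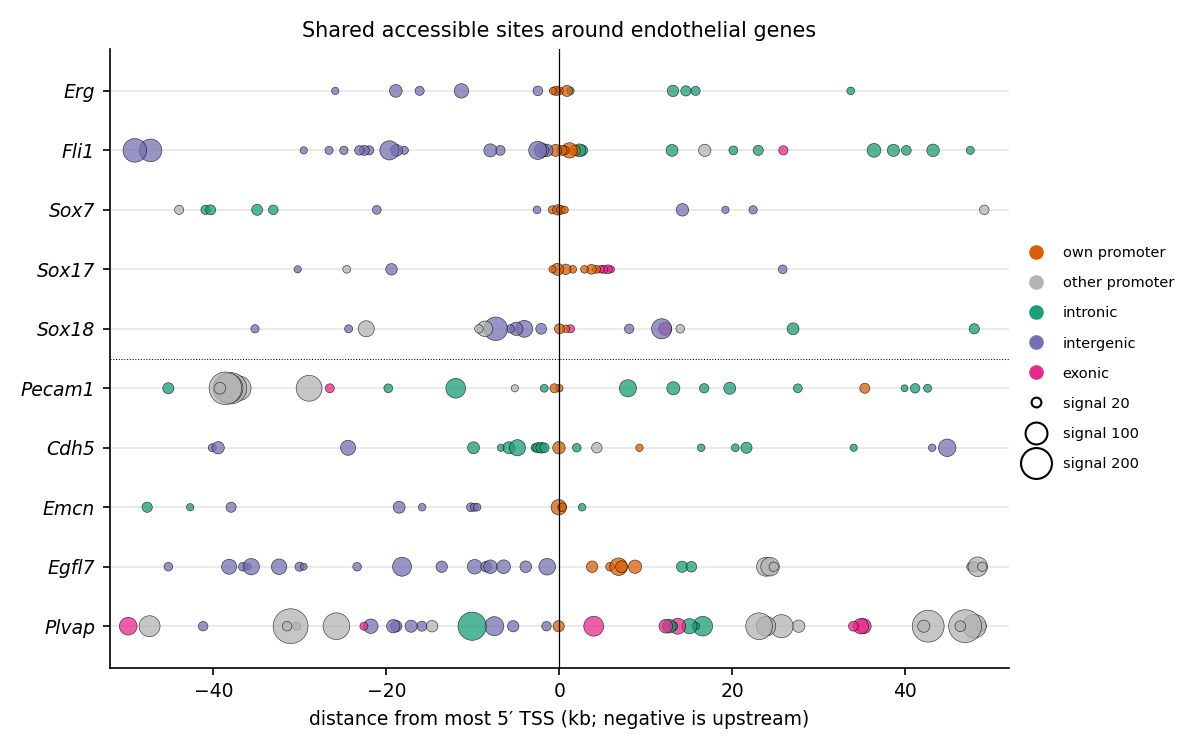
Shared sites within 50 kb of each gene by distance from its most 5′ TSS in kb, factors in the upper 5 rows and surface and junction genes in the lower 5, with circle area proportional to signal (mean of 2 replicates) and colour for the kind of site. Fli1 has 27 distal sites on both sides, the sites of Egfl7 lie mostly upstream, and the large grey circles at Pecam1 and Plvap are promoters of other genes.

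In 8 of the 10 genes the strongest distal site had more signal than the strongest promoter peak in both replicates, against 29.0% of all genes with both kinds of site (4429 of 15253). The 8 comprised 4 of 5 factors (Erg, Fli1, Sox7 and Sox18) and 4 of 5 surface and junction genes (Pecam1, Cdh5, Egfl7 and Plvap). Among genes with as many distal sites as the members had, 35.2% did so (3123 of 8864). The share also varied with CpG content over all genes, from 58.2% in the lowest quintile to 14.0% in the highest, and averaged 38.9% when weighted by the quintiles of the 10 genes. The median ratio of distal to promoter signal was 1.38 and 1.71 for the factors, against 1.82 and 2.11 for the surface and junction genes and 0.621 and 0.609 for all genes.

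A strong site within 50 kb may belong to a neighbour. At Fli1 the site with the highest mean, at -49.09 kb with 86.2 and 147, lay 44265 bp from the TSS of Ets1, another ETS factor and the nearest protein-coding gene. A neighbouring Fli1 site at -47.27 kb had 115 and 99.0, so which of these sites was stronger turned round between the replicates. At Sox18 the site at -7.34 kb, with 111 and 122, lay 1334 bp from the TSS of Tcea2. At Plvap the site at -10.07 kb, with 149 and 185, was in an intron of Ccdc194. At Pecam1 the site at -11.97 kb, with 83.7 and 78.1, was in an intron of Milr1, and at Cdh5 the site at 44.88 kb, with 64.8 and 63.2, had Gm45663 as its nearest gene, 6200 bp away, and Bean1 as its nearest protein-coding gene, 23936 bp away. The comparison was therefore repeated with only those distal sites whose nearest protein-coding TSS was that of the gene itself, an alternative chosen after seeing the data. The count was again 8 of 10, against 22.9% of genes (2842 of 12420).

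With that restriction, the strongest distal site of Fli1 was at -19.64 kb with 77.2 in replicate 1 and 77.7 in replicate 2. The -2.48 kb Fli1 site, whose sequence is shown above, had 71.4 and 66.7. For Sox18 it was the site at -4.04 kb, with 62.0 and 57.8 against a promoter signal of 24.7 and 18.0. Both factors therefore had sites closer to themselves than to any other protein-coding gene with more signal than their promoters. For Sox18 the margin was small. Its site lay 4036 bp from the Sox18 TSS, and the next site upstream, at -4.97 kb, was already nearer to Tcea2 (3704 bp). The next strongest Sox18 site of this kind, at -2.08 kb with 19.7 and 29.3, was above the promoter in replicate 2 alone. Erg had its strongest site at -11.31 kb, with 43.3 and 43.7, and Sox7 at 14.25 kb, with 32.5 and 32.5. Sox17 was the exception among the factors, since its site at -19.40 kb had 27.2 and 28.6, a little under its promoter (ratios of 0.887 and 0.920).

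Among the surface and junction genes, Plvap had its strongest site of this kind at 3.99 kb in an exon of the gene itself, with 82.0 and 83.3 against a promoter signal of 27.6 and 25.5. Pecam1 had an intronic site at 7.95 kb with 54.6 and 68.1, and Cdh5 the site at -4.83 kb with 62.3 and 47.8. The Egfl7 site at -18.18 kb had 69.5 and 81.4. Emcn was the exception, with 31.7 and 28.2 at -18.51 kb (ratios of 0.637 and 0.565). Emcn thus combined one of the stronger promoters of the 10 with the weakest strongest distal site of the surface and junction genes.

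**Figure D4:**
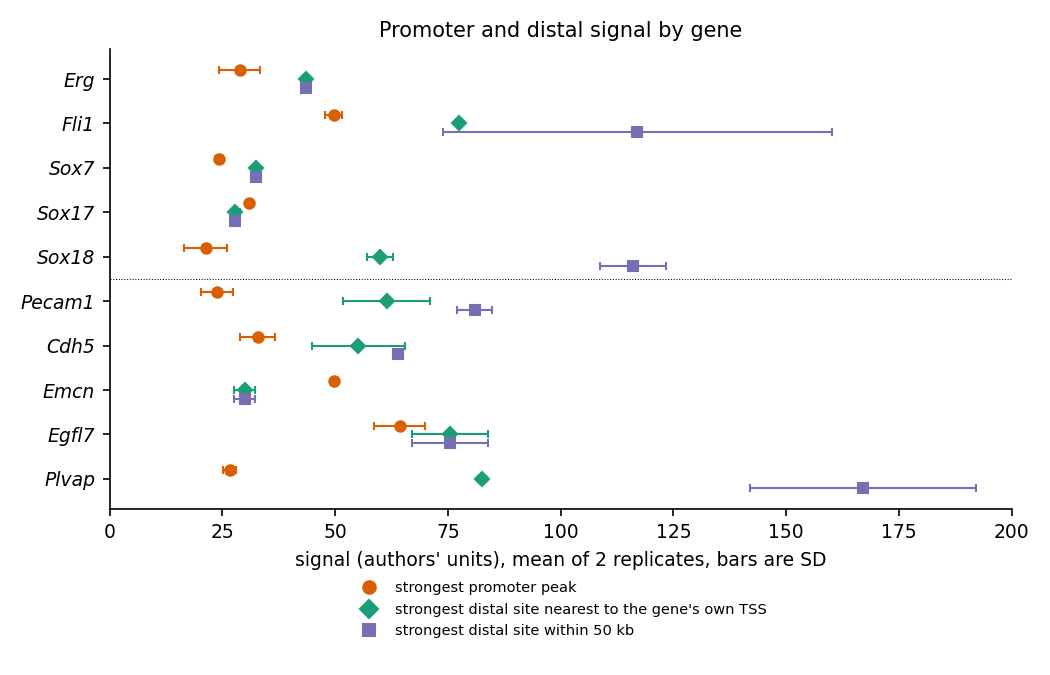
Signal (authors' units, mean of 2 replicates, bars are SD) of the strongest promoter peak (orange), the strongest distal site nearest to the gene's own TSS (green) and the strongest distal site within 50 kb (purple) of each gene, factors above the dotted line and surface and junction genes below it. The promoter lies to the left of both distal values in 8 genes, and to the right of them in Sox17 and Emcn.

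ETS-type and SOX-type letters were counted in the 148 distal sites. CAGGAAG, an ETS form that ERG and FLI1 bind, was in 28 of them (18.9%), against 13.7% of all 151068 shared distal sites. By class it was in 16.7% of the factors' sites and 20.7% of the sites of the surface and junction genes. ACAATG was in 21 (14.2%), against 9.05% of all sites, while the other SOX form, ACAAAG, was in 16 (10.8%), against 15.9%. The 2 SOX forms therefore lay on opposite sides of the background. The FOX:ETS form AACAGGAA was in 7 (4.73%), against 3.53%, and CCGGAAGT in 1 (0.676%), against 0.436%. GATAAG was in 7 (4.73%), against 5.03%, TGANTCA in 14 (9.46%), against 8.11%, and CCACACCC in 3 (2.03%), against 1.68%. In the 37 promoter sites of the 10 genes, CAGGAAG was in 8 (21.6%), against 10.1% of all 46681 promoter sites, and GATAAG in 5 (13.5%), against 3.38%. ACAATG was in 4 (10.8%), against 5.13%, and ACAAAG in 5 (13.5%), against 10.6%. CCACACCC was in 2 (5.41%), against 2.10%, and AACAGGAA in 1 (2.70%), against 1.90%. CCGGAAGT was in 0 of the 37, against 2.50%, and TGANTCA in 1 (2.70%), against 4.60%. Counts of 0 to 2 are too few to place a motif above or under the background, and those of 4 and 5 also rest on few sites.

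CAGGAAG and ACAATG were in the same site in 6 of the 148 distal sites (4.05%), against 1.32% of all. These were sites of Cdh5, 4 of its 18, and of Egfl7, 2 of its 19, and no distal site of a factor held both (0 of 66). The Cdh5 sites were at -5.81, -4.83, 2.03 and 16.42 kb, with 33.6, 62.3, 17.5 and 12.1 signal in replicate 1 and 26.5, 47.8, 13.3 and 11.8 in replicate 2. In the Cdh5 sites at -4.83 and -5.81 kb and the Egfl7 site at -1.39 kb, printed above, ACAATG was part of the longer SOX form GAACAATGG. That form was in 5 of the 148 sites (3.38%), against 0.214% of all, and the remaining 2 were Fli1 sites at -26.62 and -29.55 kb. This pairing and the longer form were looked for after the matches had been seen, and they rest on few sites, so they are a description of these sequences. At Emcn, the CAGGAAG and AACAGGAA matches printed above lay outside the promoter site, 11 and 9 bp from its edge. In the 250 bases before RefSeq starts, CAGGAAG was in 10.8% of 32536 entries and AACAGGAA in 2.26%. The Erg site at -11.31 kb held none of the 8 motifs.

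The replicates gave like signal at these genes. The log2 ratio of replicate 1 over replicate 2 at the 222 sites, centred on all shared sites, had a median of -0.02 and an SD of 0.33, against an SD of 0.35 over all shared sites. A single site differed beyond 2-fold. It was a Sox7 promoter site, with 23.6 in replicate 1 and 9.95 in replicate 2, although the strongest Sox7 promoter peak of replicate 2, with 24.9, lay elsewhere in the window. Of the promoter peaks of the 10 genes, 38 of 48 in replicate 1 overlapped a peak of replicate 2, and 39 of 46 in replicate 2 overlapped a peak of replicate 1.

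Other endothelial genes, from lists drawn up by role with earlier results of these data known, were called at their promoters as well. Of 20 other factors, 20 had such a peak in each replicate, against 71.8% of all genes. Their median signal was 84.7 and 73.4, above the medians of the 5 factors described here. The values ran from 25.1 to 196 and from 32.8 to 221, so the lowest lay within the range of the 5 factors. In 7 of 20 a distal site was stronger, against 29.0% of all genes with both kinds of site. Of 24 other surface and junction genes, 24 had one, against the same 71.8%, with medians of 42.9 and 37.2. Their values ran from 14.1 to 161 and from 11.8 to 164. In 16 of 24 a distal site was stronger, against the same 29.0%. In whole tissue, the cells that gave these signals cannot be told apart. An endothelial check list, all of whose 8 genes are also among those 24, had a summed promoter signal of 338 and 332. Of 12 kidney genes, 9 (75%, against 71.8% of all genes) had one in each replicate, Slc12a1 and Aqp2 had one in replicate 2 alone and Slc34a1 had none.

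Fli1, Erg and Pecam1 are also used in blood cells, and some markers of blood cells had promoter peaks, a smaller share in each list than the 71.8% of all genes. That share varied with CpG content, from 19.2% in the lowest quintile to 99.0% in the highest. The CpG content of the markers was not compared, so the lists have no CpG-matched share beside them. Of 12 leukocyte markers, 5 (41.7%) had a promoter peak in each replicate, with a summed signal of 137 and 155 over the list. Adgre1, C1qb, C1qc, Csf1r, Tyrobp and Itgam had none, and Ptprc had one in replicate 1 alone. Of 8 megakaryocyte and platelet markers, 3 (37.5%) had one, with a sum of 250 and 246, of which Itga2b gave 193 and 205, while those with none included Gp1ba, Ppbp and Gp6, and Gp9 had one in replicate 1 alone. Of 8 erythroid markers, 3 (37.5%) had one, with a sum of 135 and 127, and Hbb-bt, Hba-a1, Alas2, Gata1 and Slc4a1 had none. The sums depend on the length of a list and on the number of genes called. Over the genes called in both replicates, the median signal was 14.0 and 12.0 for leukocyte markers and 26.9 and 22.1 for megakaryocyte and platelet markers. It was 58.5 and 55.2 for the 3 erythroid markers, above the 39.9 and 31.8 of the endothelial check list. The part of these cells in the signal at the 10 genes was not tested.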

How the data were processed

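DNase-seq of newborn kidney was deposited as 1 narrowPeak list per replicate, made from 36-nt reads on mm10, per the file headers. The deposited signal value of each peak was used as given, to describe and rank peaks, and the deposited −log10 p of each peak, whose maximum is 324, was only inspected. The sources used here do not give the aligner, peak caller, threshold, signal scaling or depth, so no precision per peak can be given. The lists held 266133 and 257133 peaks with median signals of 17.1 and 16.9, and gave 197749 shared sites (overlap of at least 1 bp). Signals of the replicates were not rescaled, except that log2 ratios were centred.

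The members and lists were chosen with earlier results of these data known. All 10 members are named, with genes that share or neighbour their named sites and marker genes without a promoter peak. For each member the shared distal site with the highest mean rank of signal was named. Further sites, the examples of motif pairing and the kidney list were chosen after their values were seen. A marker gene that the rule names is not reported here, although the counts include it. Genes are those of GENCODE M21, and motifs were exact matches in whole sites. Alternatives changed the TSS window, the TSS used, the distance, the overlap, the signal filter, the replicates and the motif window. The interval steps were tested on simulated peaks. Python 3.11.15, numpy 2.4.6, pandas 2.3.3 and pysam 0.24.0 were used, with matplotlib 3.10.9 for plots.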

Additional observations from a re-analysis of the deposited data

How the results depend on the processing

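The promoter signal difference (factors minus surface and junction genes, -4.02) is between class medians of the mean over replicates, 28.8 at Erg and 32.8 at Cdh5. The Erg mean joins different peaks. The difference was -3.55 with only the most 5′ TSS, -6.70 with 500 bp to each side and -4.95 to -4.47 with either replicate left out. The promoter peak difference of 4 was 3 with only the most 5′ TSS and 2 with 500 bp. The distal site difference of -8 was -3 within 25 kb, -4 with peaks in the upper 50% of signal and -9 to -6 with either replicate left out. No difference changed sign under the alternatives run. For the distal site difference, these did not include a restriction to sites nearest to the gene's own TSS. The median distal count of 13 (all genes 6) was 22.5 within 100 kb (all genes 13), 6.5 in the upper 50% (all genes 3) and 17 to 17.5 with either replicate left out. With the most 5′ TSS alone, 9 members kept a promoter peak, Egfl7 having none there. A distal site was stronger in 8 members under each added setting except 100 kb, where it was 9. Of these settings, only the restriction to sites nearest to the gene's own TSS has a share over all genes here, 22.9%. The other counts, and that of promoter peaks at the most 5′ TSS, have no such share beside them, so they carry no background. Read over 300 bp, ACAAAG was in 20.3% of the members' distal sites (10.8% in whole sites), GATAAG in 11.5% (4.73%) and CCACACCC in 4.05% (2.03%), and the same window raised the shares over all sites to 25.3%, 8.61% and 2.64%. GATAAG thus lay above the background in that window and close to it in whole sites, and the cause was not tested. No paired analysis was possible because there is 1 group. Unknown depth limits all values: weak peaks may be missed, and the lists differ in length.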
